A study of Mus musculus with 7 samples.

Results

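The genes described here run mitosis, the division of the copied chromosomes between daughter cells. The set was given as a list of 44 gene symbols covering mitotic kinases and cyclins, the spindle checkpoint, the kinetochore, spindle motors, condensin and cytokinesis. Members were found as the probe sets whose symbol in the platform annotation is on that list. Of the 44, 43 were measured, each by 1 probe set, among 19505 named genes on the array. Ccnb1, which encodes cyclin B1, is not named in the probe annotation used here and has no value below.

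Mouse embryonic fibroblasts (MEFs) were profiled on 7 Clariom S arrays, 1 array in each of 7 groups. The array labelled MEF held fibroblasts that received no treatment. The 3 native isoform arrays (GT/M1, GT/M2, GT/M6) held fibroblasts given retroviruses for Gata4 and Tbx5 (GT) and for Mef2c isoform 1, 2 or 6, and the GT/M2TAD array held cells given the same 2 factors and Mef2c isoform 2 joined to the MyoD transactivation domain. The siCtrl and siEp300 arrays held transduced cells with a control siRNA or an siRNA for Ep300, which encodes the acetyltransferase p300. Their titles name GT/M2, whereas the source name and characteristics give GT/M2TAD, so the Mef2c form they received is not settled. Infected cells had their medium replaced after 24 h and were collected at 1 week. The time of harvest of the MEF array is not stated, and no array held cells with virus but without the factors. The study asked how the Mef2c form and p300 bear on the conversion of fibroblasts towards heart muscle cells. Nothing in the labels separates the transduced cells from those that took up no virus, so each array reports a mixed population.

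Entry into mitosis is driven by cyclin-dependent kinase 1 with cyclins A and B, together with the Polo and Aurora kinases. Chromosomes are compacted by condensin and attached through their kinetochores to spindle microtubules, while the spindle checkpoint delays separation until every chromosome is attached. Most of these genes are transcribed late in the cell cycle and are low in cells that have stopped dividing. Heart muscle cells largely leave the cell cycle after birth, whereas embryonic fibroblasts divide readily in culture. Many promoters of late cell cycle genes hold a cell cycle homology region, with the letters TTTGAA or TTCGAA, and CCAAT boxes, which are bound by the factor NF-Y. The homology region is bound by the DREAM complex in resting cells and by complexes of B-Myb and FoxM1 in dividing cells.

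The promoters of 8 members are shown as examples and are not a sample of the set. They include 5 members at least 2-fold below MEF on every transduced array (Cdk1, Cdc20, Ube2c, Kif11 and Ncapg). Nuf2 is 1 such member without these letters. Bub3 and Cenpa are the pair closest to the MEF level on all transduced arrays but siEp300. The first 5 all hold TTTGAA in the printed stretch, whereas the only match of Plk1, for example, lies 31 bases after its start. Each sequence is the 150 bases before the annotated start from RefSeq, build GRCm38.p6, read 5′ to 3′ on the gene's strand. Capitals mark TTTGAA or TTCGAA and CCAAT on either strand, so that TTCAAA and ATTGG mark matches on the opposite strand. Cdk1 lies on the minus strand at chr10:69352913-69353062, Cdc20 on the minus strand at chr4:118437344-118437493, Ube2c on the plus strand at chr2:164769779-164769928 and Kif11 on the plus strand at chr19:37376232-37376381. Ncapg lies on the plus strand at chr5:45669775-45669924, Nuf2 on the minus strand at chr1:169531465-169531614, Bub3 on the plus strand at chr7:131560220-131560369 and Cenpa on the plus strand at chr5:30666736-30666885.
Cdk1: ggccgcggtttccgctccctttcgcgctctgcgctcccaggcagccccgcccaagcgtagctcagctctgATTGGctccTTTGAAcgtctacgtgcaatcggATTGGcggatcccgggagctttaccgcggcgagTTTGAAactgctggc
Cdc20: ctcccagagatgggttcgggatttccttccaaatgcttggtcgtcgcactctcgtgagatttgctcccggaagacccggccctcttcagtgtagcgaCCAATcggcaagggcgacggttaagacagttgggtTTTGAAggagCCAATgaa
Ube2c: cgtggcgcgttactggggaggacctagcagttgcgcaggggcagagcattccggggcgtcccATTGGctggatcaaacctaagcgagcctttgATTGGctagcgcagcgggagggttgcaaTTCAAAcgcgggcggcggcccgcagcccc
Kif11: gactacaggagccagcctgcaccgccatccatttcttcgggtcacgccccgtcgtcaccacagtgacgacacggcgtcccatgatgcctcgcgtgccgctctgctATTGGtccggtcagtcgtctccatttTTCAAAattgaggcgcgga
Ncapg: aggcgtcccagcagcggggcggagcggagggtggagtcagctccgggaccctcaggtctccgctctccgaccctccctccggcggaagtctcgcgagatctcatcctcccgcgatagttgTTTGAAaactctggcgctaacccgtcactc
Nuf2: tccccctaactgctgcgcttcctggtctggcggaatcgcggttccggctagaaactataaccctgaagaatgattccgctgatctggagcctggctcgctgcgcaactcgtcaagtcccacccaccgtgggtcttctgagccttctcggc
Bub3: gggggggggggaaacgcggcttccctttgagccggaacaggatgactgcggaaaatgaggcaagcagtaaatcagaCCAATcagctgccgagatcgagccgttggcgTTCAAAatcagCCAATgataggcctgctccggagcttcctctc
Cenpa: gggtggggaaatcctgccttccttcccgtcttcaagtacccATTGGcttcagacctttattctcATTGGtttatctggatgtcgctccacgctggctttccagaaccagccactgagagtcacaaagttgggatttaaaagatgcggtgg

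In Cdk1 the letters TTTGAA begin 71 and 15 bases before the start, with CCAAT matches at 80 and 48 bases. Cdc20 holds TTTGAA at 18 bases, between CCAAT matches at 53 and 8 bases. Ube2c, Kif11 and Ncapg hold 1 TTTGAA match each, at 29, 19 and 30 bases, and Ncapg has no CCAAT in this stretch. Bub3 holds a TTTGAA match at 43 bases and CCAAT matches at 74 and 32 bases, so the letters are present in 1 of the members with the smallest differences from MEF. Cenpa shows CCAAT at 109 and 86 bases and no TTTGAA or TTCGAA in the stretch printed, but a TTTGAA match lies 17 bases after its start, inside the window counted next.

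Over the full windows of 300 bases, from 250 before to 50 after the start, 36 measured members had a promoter entry. TTTGAA was found in 28 of them (77.8%), against 18.1% of 27025 promoters of the same length. TTCGAA, which reads the same on both strands, was found in 3 (8.33%), against 1.57%. CCAAT was found in 28 (77.8%), against 37.9% of all promoters. A window with CCAAT and at least 1 of the homology region motifs was found for 26 members (72.2%), against 7.7% of all promoters and 7.3% of the 15691 promoters of genes measured here. None of the 3 motifs was found for Birc5, Mad2l1, Ncaph, Nuf2 and Nusap1 (13.9%), against 50.3% of all promoters. All 5 were at least 2-fold below MEF on every transduced array, as were 42 of the 43 measured members, so this says nothing about the motifs. Of the 19505 named genes, 924 were likewise lower on all 6 transduced arrays. The letters are a description of the promoters and do not show that any factor was bound.

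Signals are given on the log2 scale, so a difference of 1 is 2-fold. A gene is counted as higher or lower when its difference was at least 1 and its larger signal reached the median of the named genes on that array. With 1 array in each group there is no spread between replicates, no test was possible, and every difference is between single arrays. In these bulk samples fewer dividing cells and less RNA per dividing cell cannot be told apart. The gauge of background used throughout is the level that 95% of the 5222 negative-control probes stay under, which lay between 8.43 and 9.33. On the MEF array 38 of 43 members exceeded it. The number was 16 on GT/M2, 10 on GT/M6, 7 on GT/M1, 4 on GT/M2TAD, 5 on siEp300 and 3 on siCtrl. Among all named genes the share above this level was 26.2% in MEF. For transduced cells that share ranged from 23.7% (GT/M1) to 29.6% (siEp300), with 25.6% for GT/M6. Where a signal lies under that level the true ratio is not measured, and the printed difference rests in part on background.

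The series as a whole bears on these values as follows. Of the transduced factors, Tbx5 was 5.72 in MEF and 14.82 or more on the 6 transduced arrays, and Mef2c was 8.24 in MEF and 18.32 or more. Gata4 was 4.22 in MEF and 3.57 to 5.09 on the transduced arrays, under the background level on all 7, so its signal does not bear out that label. Whether its probes cover the transduced sequence is not known here. The targeted gene Ep300 had a signal of 9.47 in siEp300 and 9.90 in siCtrl, and lay between 9.87 and 10.22 on the other arrays. Of 9 measured fibroblast markers, 8 exceeded the background level on MEF, and their mean signal was 13.95 in MEF, 11.49 to 12.48 on the 4 arrays that had no siRNA, and 14.33 to 14.42 on the siRNA pair. Single fibroblast markers differed from MEF by -1.10 (Pdgfrb) to 3.46 (Postn) on siCtrl and by -0.87 (Thy1) to 3.45 (Postn) on siEp300. The mean of 8 heart muscle markers was 5.26 in MEF, where none exceeded the background level, and 10.35 to 11.73 on the 6 transduced arrays. No macrophage marker exceeded the background level on any array, 1 endothelial marker did on MEF alone, and 1 epithelial marker did on siCtrl and siEp300. The part of these cell type differences in the results below was not tested.

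Nearly the whole mitotic set was lower on every transduced array than on untreated fibroblasts. All 3 native isoforms gave 42 of 43 members lower, with none higher. For GT/M1 the median difference was -3.41, a 10.6-fold lower signal. For GT/M2 it was -2.71, or 6.54-fold, and for GT/M6 it was -3.62, or 12.3-fold. GT/M2TAD also had 42 members lower, with a median of -4.56 or 23.6-fold, and 1 member, Cenpa, higher. On siCtrl all 43 measured members were lower, with a median of -5.00, and on siEp300 42 were lower, again with a median of -5.00. Over all named genes the share lower than on MEF was 9.52% for GT/M1, 8.34% for GT/M2, 8.79% for GT/M6, 9.50% for GT/M2TAD, 10.9% for siCtrl and 9.29% for siEp300, and the share higher was 12.5%, 13.6%, 13.0%, 14.0%, 10.9% and 13.4% in that order. The median over all named genes lay between 0.01 and 0.12 in these comparisons. Median centring moved it to between -0.06 and -0.25 and turned the split of all named genes for GT/M1 from 1856 lower and 2437 higher to 2513 lower and 1815 higher, for GT/M2 from 1626 and 2643 to 2222 and 1955, for GT/M6 from 1715 and 2545 to 2444 and 1852, for GT/M2TAD from 1853 and 2729 to 2387 and 2158, and for siEp300 from 1812 and 2623 to 2299 and 2104. The members' counts stayed at 42 or 43 lower. These 6 comparisons share the MEF array, so 1 unusual MEF array would appear in all of them, and infection and time in culture cannot be told apart from the factors.

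**Figure D1:**
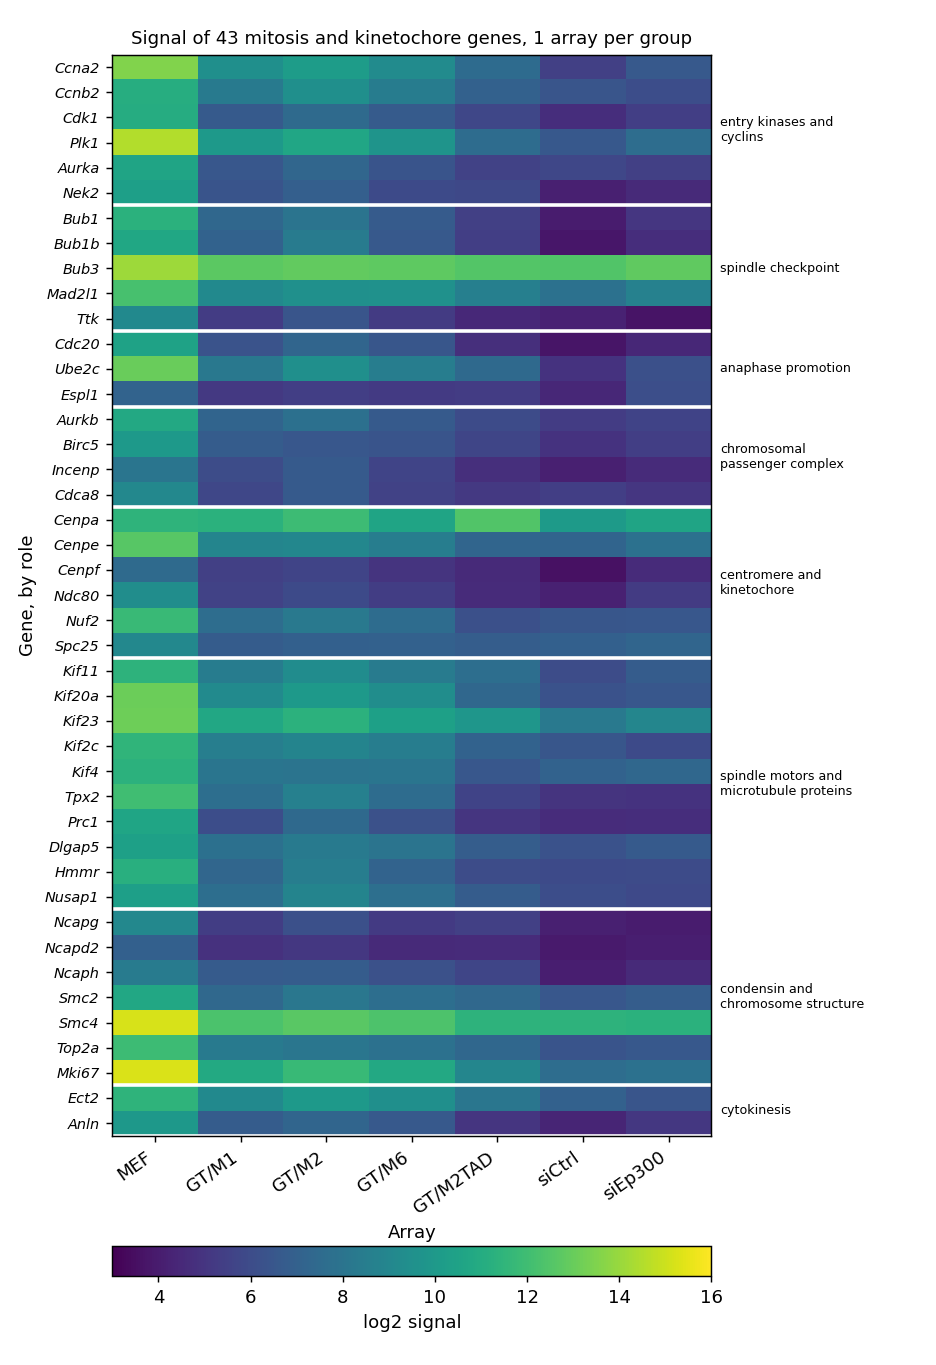
The deposited log2 signal of each of the 43 measured members (rows, grouped by role) on the 7 arrays (columns, 1 array per group) is shown as colour. The MEF column is the highest for 42 members, and the GT/M2TAD, siCtrl and siEp300 columns hold the lowest signals for 42 members.

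**Figure D2:**
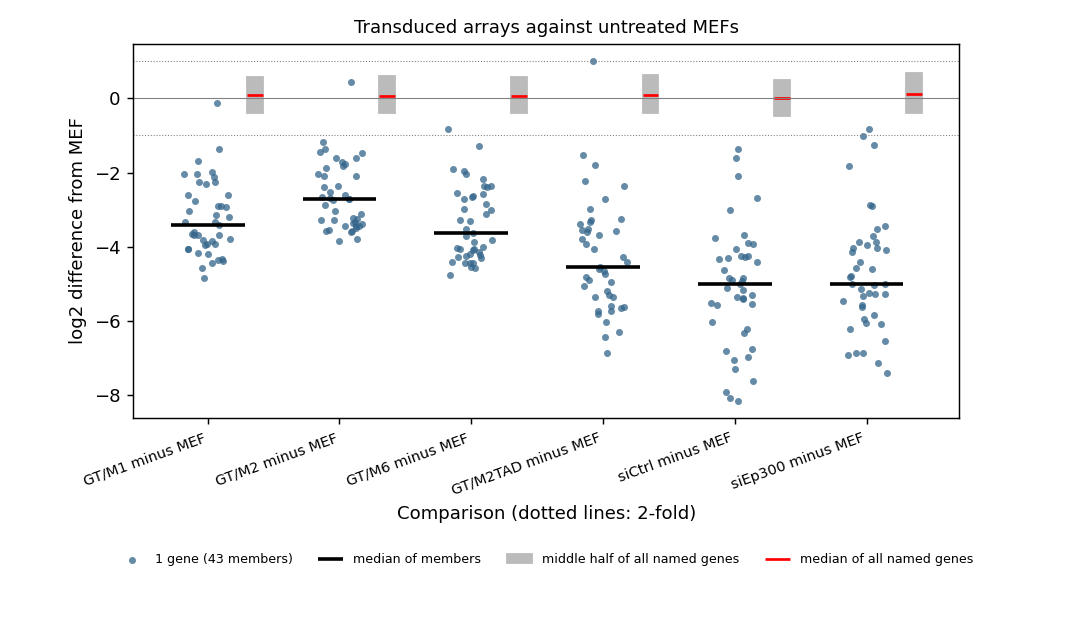
Each point is the log2 difference of 1 member between a transduced array and the MEF array, black bars are member medians, grey boxes run from the lower to the upper quartile of the 19505 named genes, and dotted lines mark 2-fold. Member medians lie between -2.71 and -5.00, below the grey boxes, and the point above the upper dotted line for GT/M2TAD is Cenpa.

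The size of these differences is bounded by background more than their direction. In the comparison with MEF, both signals exceeded the background level for 16 members on GT/M2, 10 on GT/M6, 7 on GT/M1, 5 on siEp300, 4 on GT/M2TAD and 3 on siCtrl. Among those members the medians were -2.56, -2.78, -2.89, -3.52, -2.40 and -1.62 in the same order. For 5 members, Espl1, Incenp, Cenpf, Ncapd2 and Ncaph, no array gave a signal above the background level. Another 22 members exceeded it on MEF alone. With every signal under 9.33 raised to 9.33, 29 to 30 members were still at least 2-fold lower on each transduced array, and the medians lay between -1.46 and -1.52. The same rule took in 4.55% of all named genes for GT/M1, 3.97% for GT/M2, 4.30% for GT/M6, 4.56% for GT/M2TAD, 4.88% for siCtrl and 4.27% for siEp300.

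The kinases and cyclins that open mitosis were lower on every transduced array. Median differences of the 6 measured members were -4.06 in GT/M1, -3.39 in GT/M2, -4.29 in GT/M6 and -5.17 in GT/M2TAD. Plk1, the Polo kinase that drives entry into mitosis and spindle assembly, had a signal of 14.48 in MEF, 10.03 in GT/M1, 10.68 in GT/M2, 9.70 in GT/M6, 7.61 in GT/M2TAD, 6.57 in siCtrl and 7.62 in siEp300. Its 3 native isoform arrays lie between MEF and the other 3 arrays, with no overlap. On GT/M2TAD it was 117-fold lower than on MEF, which is among the 3 largest member differences there, although its GT/M2TAD signal is below the background level. Ccna2, the cyclin A of somatic cells, had signals of 13.55 in MEF, 9.49 in GT/M1, 10.20 in GT/M2, 9.27 in GT/M6, 7.53 in GT/M2TAD, 5.45 in siCtrl and 6.63 in siEp300. It spanned 4.75 over the 6 transduced arrays, the widest span of any member. Ccna2 overlaps Exosc9 in the annotation, and the probe positions were not used here to tell the 2 genes apart. Cdk1, the catalytic partner of cyclins A and B, went from 11.04 in MEF to 6.70 in GT/M1, 7.48 in GT/M2, 6.74 in GT/M6, 5.75 in GT/M2TAD, 4.71 in siCtrl and 5.42 in siEp300. All 6 transduced signals of Cdk1 lie below the background level. Ccnb2, which encodes cyclin B2, Aurka, the Aurora kinase of the spindle poles, and Nek2, a centrosomal kinase, were lower than on MEF by amounts that ranged from -1.62 for Ccnb2 on GT/M2 to -6.22 for Nek2 on siCtrl.

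The spindle checkpoint genes were all lower, 4 of them by much more than Bub3. Bub3, a checkpoint protein that also binds kinetochores, had signals of 14.07 in MEF, 12.71 in GT/M1, 12.89 in GT/M2, 12.78 in GT/M6, 12.54 in GT/M2TAD, 12.46 in siCtrl and 12.81 in siEp300. The 6 transduced arrays lie within 0.43 of each other and all below MEF, by -1.19 in GT/M2 to -1.62 in siCtrl. Bub3 is 1 of 3 members above the background level on all 7 arrays, so these small differences do not come from a signal at background. Bub1b, which encodes the checkpoint kinase-like protein BubR1, had 10.75 in MEF, 7.10 in GT/M1, 8.38 in GT/M2, 6.61 in GT/M6, 5.40 in GT/M2TAD, 3.79 in siCtrl and 4.70 in siEp300. Its signal on GT/M2 stands above those of both other native isoforms, but all its transduced signals lie under the background level. The kinases Bub1 and Ttk differed from MEF by between -2.70, for Ttk on GT/M2, and -7.30, for Bub1 on siCtrl. Mad2l1, the Mad2 protein that holds back anaphase, had 12.21 in MEF, 9.16 in GT/M1, 9.50 in GT/M2, 9.56 in GT/M6, 8.60 in GT/M2TAD, 7.87 in siCtrl and 8.69 in siEp300.

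Anaphase is started by the anaphase-promoting complex, which Cdc20 activates and for which Ube2c supplies ubiquitin, and by the protease separase, the product of Espl1. Ube2c had signals of 13.05 in MEF, 8.21 in GT/M1, 9.49 in GT/M2, 8.49 in GT/M6, 7.46 in GT/M2TAD, 4.89 in siCtrl and 6.19 in siEp300. Only its MEF and GT/M2 signals exceeded the background level of their arrays. The difference of -8.16 in siCtrl was the largest of any member in the 12 comparisons. Cdc20 went from 10.51 in MEF to 6.31 in GT/M1, 7.26 in GT/M2, 6.47 in GT/M6, 4.76 in GT/M2TAD, 3.75 in siCtrl and 4.43 in siEp300. Espl1 showed smaller differences, with 7.12 in MEF, 5.14 in GT/M1, 5.42 in GT/M2, 5.21 in GT/M6, 5.33 in GT/M2TAD, 4.44 in siCtrl and 6.10 in siEp300. Every one of these Espl1 signals is under the background level, so its differences carry little weight.

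The chromosomal passenger complex corrects faulty kinetochore attachments and consists of the kinase Aurkb with Incenp, Birc5 and Cdca8. Aurkb had signals of 10.86 in MEF, 7.16 in GT/M1, 7.82 in GT/M2, 6.66 in GT/M6, 5.95 in GT/M2TAD, 5.33 in siCtrl and 5.60 in siEp300. All 4 subunits were lower on all 6 transduced arrays, with medians between -2.71 in GT/M2 and -4.50 in siCtrl. Birc5, which encodes survivin, was lower on GT/M2 (6.55) than on GT/M1 (6.80), whereas Incenp, Cdca8 and Aurkb were higher on GT/M2. For all 4 subunits the signals on these arrays are under the background level.

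Among centromere and kinetochore genes, Cenpa differed least from MEF on each of the 6 transduced arrays. As deposited it was lower by the 2-fold rule on siCtrl alone, and after median centring also on GT/M6 (-1.16) and siEp300 (-1.07). Cenpa encodes the histone H3 variant that marks centromeres. Its signals were 11.44 in MEF, 11.31 in GT/M1, 11.89 in GT/M2, 10.61 in GT/M6, 12.46 in GT/M2TAD, 10.07 in siCtrl and 10.61 in siEp300. Cenpa was the only member whose highest array was not MEF, and GT/M2TAD exceeded MEF by 1.02, or 2.02-fold. That count as higher depends on scaling: the difference was 0.86 after quantile normalization and 0.76 after median centring, and level-dependent centring also took it under 2-fold. All 7 signals exceed the background level. The other 5 kinetochore genes measured were lower on every transduced array. Cenpe, a kinesin-like motor of the kinetochore, had 12.61 in MEF, 8.94 in GT/M1, 9.01 in GT/M2, 8.52 in GT/M6, 7.26 in GT/M2TAD, 7.21 in siCtrl and 7.84 in siEp300. Ndc80 and Nuf2, partners in the complex that grips microtubules, were lower by -3.45 and -3.57 in GT/M2 and by -4.74 and -5.64 in GT/M2TAD. Spc25, another subunit of that complex, had 9.06 in MEF and lay between 6.80 and 7.23 on the 6 transduced arrays, a span of 0.43. The transduced signals of Spc25 all lie under the background level.

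**Figure D3:**
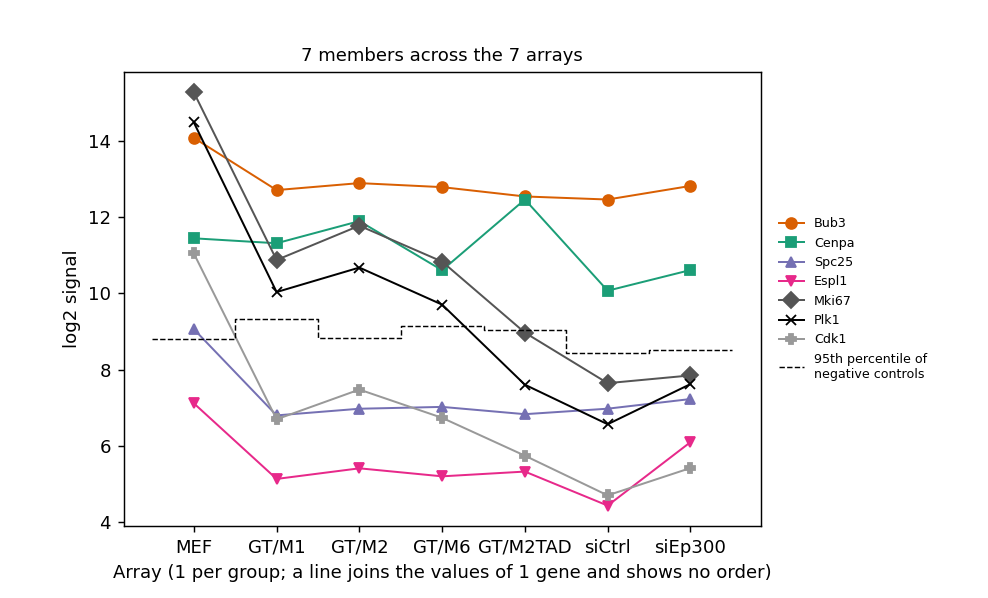
Log2 signals of 7 members on the 7 arrays are plotted, with a line for each gene and dashes at the background level of each array. Cenpa peaks on GT/M2TAD at 12.46, Bub3 lies between 12.46 and 12.89 on the transduced arrays, and Plk1 runs from 14.48 in MEF to 6.57 in siCtrl.

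The spindle motors and microtubule proteins were lower throughout, with medians over 10 members of -3.13 in GT/M1, -2.67 in GT/M2, -3.15 in GT/M6 and -4.61 in GT/M2TAD. Kif23, a kinesin of the central spindle, had signals of 13.11 in MEF, 10.80 in GT/M1, 11.34 in GT/M2, 10.39 in GT/M6, 9.85 in GT/M2TAD, 8.27 in siCtrl and 8.97 in siEp300. It exceeded the background level on every array but siCtrl. Kif11, the motor that pushes spindle poles apart, had 11.40 in MEF, 8.47 in GT/M1, 9.31 in GT/M2, 8.40 in GT/M6, 7.71 in GT/M2TAD, 6.02 in siCtrl and 6.80 in siEp300. Tpx2, which activates Aurora A and promotes spindle assembly, had 12.04 in MEF, 7.69 in GT/M1, 8.68 in GT/M2, 7.61 in GT/M6, 5.59 in GT/M2TAD, 4.98 in siCtrl and 4.89 in siEp300. Tpx2 was among the 3 members furthest below MEF on GT/M2TAD and siEp300. Kif4, a chromosome-bound kinesin, differed in order from most: GT/M2TAD was its lowest array at 6.55, with 7.11 in siCtrl and 7.34 in siEp300. All transduced signals of Kif4 are under the background level. Prc1, which bundles the microtubules of the central spindle, differed from MEF by -4.58 in GT/M1 and by -3.24 in GT/M2, at signals of 6.09 and 7.43. Both of these signals are under the background level.

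Condensin and other chromosome proteins were lower on all 6 transduced arrays, and their median of -3.57 over 7 members on GT/M2TAD was the smallest in size of the 8 role groups there. Smc4, an ATPase core subunit of condensin, had signals of 15.19 in MEF, 12.30 in GT/M1, 12.67 in GT/M2, 12.35 in GT/M6, 11.40 in GT/M2TAD, 11.42 in siCtrl and 11.33 in siEp300. It is, with Bub3 and Cenpa, above the background level on all arrays, and its differences are the largest of these 3, from -2.52 in GT/M2 to -3.86 in siEp300. Its partner Smc2 had 10.80 in MEF and 6.51 to 8.13 on the transduced arrays. Mki67, the proliferation antigen Ki-67 that coats mitotic chromosomes, had 15.26 in MEF, 10.87 in GT/M1, 11.77 in GT/M2, 10.83 in GT/M6, 8.97 in GT/M2TAD, 7.65 in siCtrl and 7.85 in siEp300. Top2a, the topoisomerase that untangles sister chromatids, had 11.94 in MEF, 8.32 in GT/M1, 8.08 in GT/M2, 7.87 in GT/M6, 7.33 in GT/M2TAD, 6.38 in siCtrl and 6.60 in siEp300. Top2a was among the 3 members furthest below MEF on GT/M2. Of the condensin I subunits, Ncapg differed from MEF by -2.89 to -5.05, and Ncapd2 and Ncaph, which never exceeded the background level, by -1.61 to -4.29.

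For cytokinesis 2 genes were measured. Ect2, the exchange factor that activates RhoA at the cleavage plane, had signals of 11.45 in MEF, 9.19 in GT/M1, 9.96 in GT/M2, 9.50 in GT/M6, 8.12 in GT/M2TAD, 7.03 in siCtrl and 6.45 in siEp300. Anln, which encodes the scaffold anillin of the contractile ring, had 9.93 in MEF, 6.78 in GT/M1, 7.22 in GT/M2, 6.65 in GT/M6, 4.98 in GT/M2TAD, 4.36 in siCtrl and 5.12 in siEp300. Both were highest on MEF and, among transduced arrays, on GT/M2.

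For most members the transduced arrays split in the same way. All 3 native isoform arrays lay above GT/M2TAD and both siRNA arrays for 36 of 43 members (83.7%), against 14.3% of all named genes. The 7 members without that order were Bub3, Espl1, Cenpa, Spc25, Ncapg, Ncapd2 and Smc2. GT/M2 was the highest transduced array for 36 members, and for 20.6% of all named genes. The lowest array was siCtrl for 30 members and siEp300 for 10, and these were the lowest for 22% and 10.9% of all named genes. It was GT/M2TAD for Nuf2 and Kif4 and GT/M1 for Spc25. The background level was itself lowest on siCtrl (8.43) and siEp300 (8.52), against 8.81 to 9.33 on the other arrays. Because most signals on GT/M2TAD, siCtrl and siEp300 are under the background level, the order among them is weakly measured. Their split from the native isoforms is limited too, since 22 members exceeded that level on MEF alone and 5 on no array.

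The native isoforms were compared to ask whether the form of Mef2c bears on these genes. Of 43 members, 38 had a higher signal on GT/M2 than on both GT/M1 and GT/M6 (88.4%), against 38.6% of all named genes. The 5 without that order were Mad2l1, Birc5, Spc25, Kif4 and Top2a. The median of GT/M2 minus GT/M1 was 0.65, or 1.57-fold. At the 2-fold rule 7 members were higher on GT/M2 than on GT/M1, namely Ccnb2, Bub1b, Ttk, Ube2c, Prc1, Hmmr and Nusap1, and none was lower, against 1.90% and 1.39% of all named genes. Prc1 differed by 1.34, Bub1b by 1.28 and Ube2c by 1.28. Again 7 members were counted after quantile normalization, where the split of all named genes was 344 lower and 299 higher (1.53%) against 271 and 370 as deposited. The 7 members whose signals exceeded the background level on both arrays had a median of 0.58. With signals raised to 9.33 no member reached 2-fold, against 0.492% of all named genes.

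GT/M6 lay below GT/M2 in the same way, with 14 of 43 members at least 2-fold lower and none higher, against 1.71% and 1.85% of all named genes. The median was -0.79, and it was -0.76 over the 10 members above the background level on both arrays. Bub1b differed by -1.77, Hmmr, which encodes a spindle-associated hyaluronan receptor, by -1.33, and Cenpa by -1.29. The smallest differences were those of Spc25 (0.05), Mad2l1 (0.06) and Kif4 (0.08). The count was 9 after quantile normalization and after level-dependent centring, against 1.51% and 1.45% of all named genes, and 4 when the larger signal had to exceed the background level, against 0.918%. GT/M2 is in both of these comparisons, so they are not independent. GT/M6 and GT/M1 were close, with no member 2-fold apart (0.292% of all named genes were lower and 0.646% higher) and a median of -0.08. The widest differences there were -0.71 for Cenpa, -0.63 for Bub1 and -0.51 for Cenpf.

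The fusion with the MyoD domain was set against the same isoform without it. Of 43 members, 32 were at least 2-fold lower on GT/M2TAD and none was higher, against 3.33% and 2.96% of all named genes. The median was -1.75, or 3.36-fold, while that over all named genes was 0.00. Tpx2 was 8.50-fold lower, and Plk1 (-3.07), Bub1b (-2.98) and Mki67 (-2.80) followed. Both signals of Tpx2 and Bub1b, and the GT/M2TAD signals of Plk1 and Mki67, are under the background level. All 6 entry kinases and cyclins and all 10 spindle proteins were lower by the 2-fold rule, as were both cytokinesis genes, 3 of 5 checkpoint genes, 2 of 3 anaphase genes, 3 of 4 passenger subunits, 3 of 6 kinetochore genes and 3 of 7 chromosome proteins. The 11 members outside the rule were Bub3, Mad2l1, Espl1, Birc5, Cenpa, Cenpf, Spc25, Ncapg, Ncapd2, Smc2 and Top2a. Cenpa was 0.57 higher, the only member above zero.

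Background limits how large that gap can be called. Both signals were under the background level for 27 of the 43 members and 1 was for another 12. The median over the 4 members with both above it was -0.81. When the larger signal had to exceed that level the count was 13, against 1.86% of all named genes, and with signals raised to 9.33 it was 4, against 1.15%. Against the mean of the 3 native isoform arrays in place of GT/M2, 26 members were lower, Cenpa was higher, and the median was -1.23, against 2.28% lower and 2.60% higher among all named genes. Fibroblast markers averaged 12.26 in GT/M2TAD and 11.49 in GT/M2, and heart muscle markers 11.32 and 11.11. Single markers went both ways, from -1.47 for Col3a1 to 3.34 for Thy1, and from -2.57 for Myh6 to 2.43 for Nppa. Their part in the difference was not tested.

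**Figure D4:**
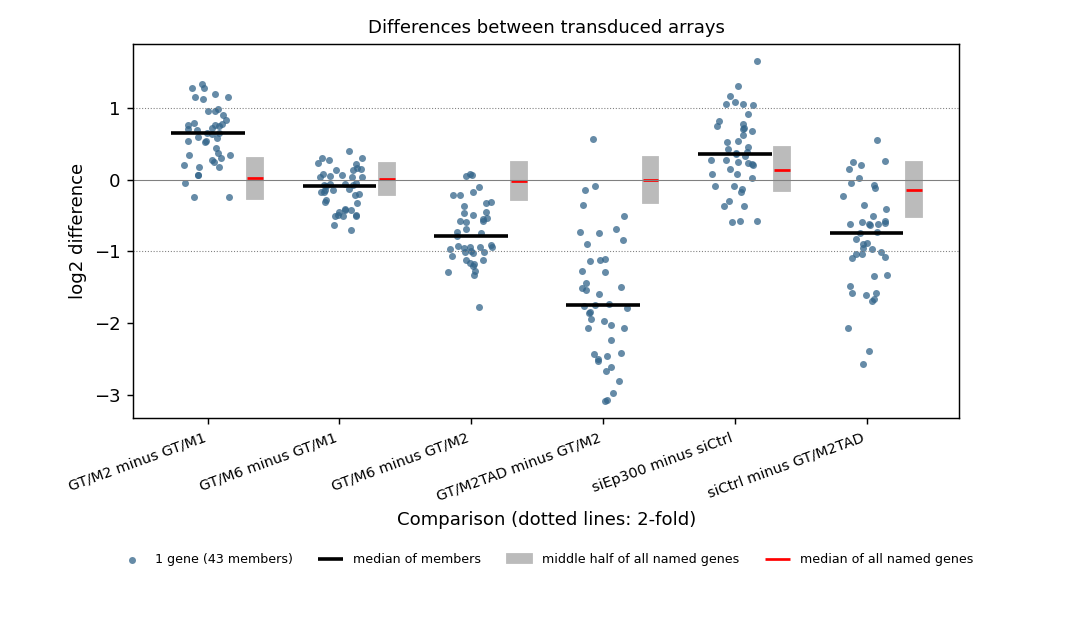
Each point is the log2 difference of 1 member between arrays of transduced cells, with member medians as black bars and 2-fold marked by dotted lines. Members lie mostly above zero for GT/M2 minus GT/M1 (median 0.65), around zero for GT/M6 minus GT/M1 (median -0.08), and mostly below the lower dotted line for GT/M2TAD minus GT/M2 (median -1.75).

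The Ep300 siRNA was compared with the control siRNA to ask what p300 contributes. On siEp300, 4 members were at least 2-fold higher than on siCtrl and none was lower, against 1.93% and 0.390% of all named genes. They were Espl1 (1.66), Ube2c (1.30), Ccna2 (1.17) and Plk1 (1.05). All 8 signals behind these 4 differences lie under the background level of their arrays, and with a floor at that level no member was 2-fold apart, against 0.600% of all named genes higher and 0.0308% lower. The median over members was 0.36 and that over all named genes 0.14. After quantile normalization 2 members were higher and the median was 0.15, and the split of all named genes went from 76 lower and 377 higher to 168 lower and 161 higher (0.825%). Of the 43 members, 10 were lower on siEp300, the largest such differences being -0.59 for Ttk, -0.58 for Ect2 and -0.58 for Kif2c, a kinesin that takes apart microtubule ends. The 3 members measured above background on both arrays, Bub3, Cenpa and Smc4, differed by 0.36, 0.54 and -0.09.

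Which array the siRNA cells should be set against is open because their labels disagree. Against GT/M2TAD, siCtrl had 12 members at least 2-fold lower and none higher, against 6.38% and 3.04% of all named genes, with a median of -0.74. Ube2c (-2.58), Cenpa (-2.39) and Ccna2 (-2.07) differed most. The count was 8 after quantile normalization, where the split of all named genes went from 1245 lower and 592 higher to 759 lower (3.89%) and 814 higher. In this comparison both signals were under the background level for 39 members. Kif23 exceeded it on GT/M2TAD alone, and Cenpa, Bub3 and Smc4 on both arrays. Of those 3, Cenpa was 12.46 in GT/M2TAD and 10.07 in siCtrl, while Bub3 and Smc4 differed by -0.08 and 0.02. The siEp300 array had 7 members lower than GT/M2TAD, with a median of -0.35, and 35 lower than GT/M2, with a median of -2.16. Of all named genes 3.66% were lower in the first of these and 7.31% in the second.

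Genes of the same processes outside the 44 were read from 10 further lists with 166 measured genes, and those named here were picked after their values were seen. Of the 166, 101 were lower than on MEF for GT/M1, 95 for GT/M2, 104 for GT/M6 and 110 for GT/M2TAD, and the share differed between lists. Of 18 other mitotic kinesins and spindle factors, 17 were lower in each of GT/M1, GT/M2 and GT/M2TAD and all 18 on GT/M6, Kif2a being the exception at -0.94, -0.91 and -0.53. After median centring Kif2a was at -1.24, -1.23 and -0.79. Of 27 further kinetochore genes, 19 were lower on each native isoform array and 20 on GT/M2TAD, with none higher. For most of these 27 genes even the MEF signal is under the background level, so their differences rest in part on background. The same holds for some genes of the spindle, centrosome and DNA replication lists. Of 14 cohesin genes, 8 were lower on GT/M1, GT/M6 and GT/M2TAD and 6 on GT/M2. The centromeric protectors Sgo1 and Sgo2a, the securin Pttg1, the acetyltransferase Esco2, the sororin gene Cdca5 and the ring subunit Rad21 were lower on all 6 transduced arrays. All signals of Sgo2a and Esco2 are under the background level. The ring subunits Smc1a and Smc3 were lower on all but GT/M2, at -0.49 and -0.80 there. As deposited, Stag1 was lower on the siRNA pair alone, Stag2 was higher on GT/M2 alone (1.27), and Nipbl, Wapl, Pds5a and Pds5b were within 2-fold on all 6. Median centring took Stag2 on GT/M2 under 2-fold, and Stag1, Pds5a and Pds5b on GT/M2TAD past it. Of 16 centrosome and centriole genes, 6 were lower with isoform 1, 5 with isoform 2, 8 with isoform 6 and 7 on GT/M2TAD. Of 15 genes of the anaphase-promoting complex, 0 were lower with isoform 1, 1 with isoform 2, 1 with isoform 6 and 4 on GT/M2TAD, against 9.52%, 8.34%, 8.79% and 9.50% of all named genes. Anapc2 and Anapc13 were higher on all 4, a share of 13.3% against 12.5% to 14.0% of all named genes. Apart from the 4 lower on GT/M2TAD, these counts are near or under the shares of all named genes. Anapc2 passed under 2-fold on GT/M2TAD after quantile normalization (0.87), and after median centring on GT/M2TAD (0.79) and GT/M1 (0.86).

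DNA replication genes were lower about as often as the mitotic set, 28 of 30 on GT/M1, 27 on GT/M2 and GT/M6 and 28 on GT/M2TAD. Their medians were smaller in size, at -2.61, -2.14, -2.74 and -3.02. On GT/M2TAD 13 of the 30 were at least 2-fold lower than on GT/M2, with a median of -1.07, against 3.33% of all named genes. Of 20 genes that control mitotic transcription, 8 were lower and 2 higher with isoform 1, and 6 lower and 3 higher with isoform 2. With isoform 6, 8 were lower and 4 higher, and on GT/M2TAD 11 were lower and 3 higher. Of all named genes, 9.52%, 8.34%, 8.79% and 9.50% were lower on these arrays, and 12.5%, 13.6%, 13.0% and 14.0% higher. The counts of higher genes are thus near those shares. Mybl2, which encodes B-Myb, had a signal of 10.31 in MEF and 4.05 to 5.48 on the transduced arrays. Rbl2, which encodes the pocket protein p130 of the DREAM complex, went the other way, with 7.95 in MEF, 9.42 in GT/M1, 9.99 in GT/M2, 9.62 in GT/M6, 9.72 in GT/M2TAD, 9.76 in siCtrl and 9.58 in siEp300. Its MEF signal is under the background level. Lin37, another DREAM subunit, was also higher on all 6, from 6.99 in MEF to between 8.01 and 9.06, but every one of its signals is under the background level. Other genes of that list had lower signals: Lin9, also of the DREAM complex, differed from MEF by -1.56 to -2.54, and Rbl1, which encodes p107, by -1.09 to -2.79, on all 6 arrays. E2f4 was lower on 4 arrays and Rbbp4 on 3. All signals of Lin9, Rbl1 and E2f4 are under the background level as well. Of the G1 genes, Cdk6 was 1.04 to 1.76 higher on the transduced arrays, at the lower end 0.72 in GT/M2 after median centring, and Ccne1, which encodes cyclin E1, had 11.21 in MEF and 7.23 to 8.47 on them. Of 16 other mitotic kinases and phosphatases, 10 were lower than on MEF and 1 was higher with isoform 1. The counts were 9 and 2 with isoform 2, and 10 and 1 with isoform 6. From that list Wee1, which holds Cdk1 inactive, had 10.88 in MEF, 8.40 in GT/M1, 9.06 in GT/M2, 9.13 in GT/M6, 10.73 in GT/M2TAD, 10.93 in siCtrl and 10.62 in siEp300. Its GT/M1 and GT/M6 signals are under the background level. Unlike most of its list, Wee1 was near its MEF level on the same 3 arrays on which most members were lowest.

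**Figure D5:**
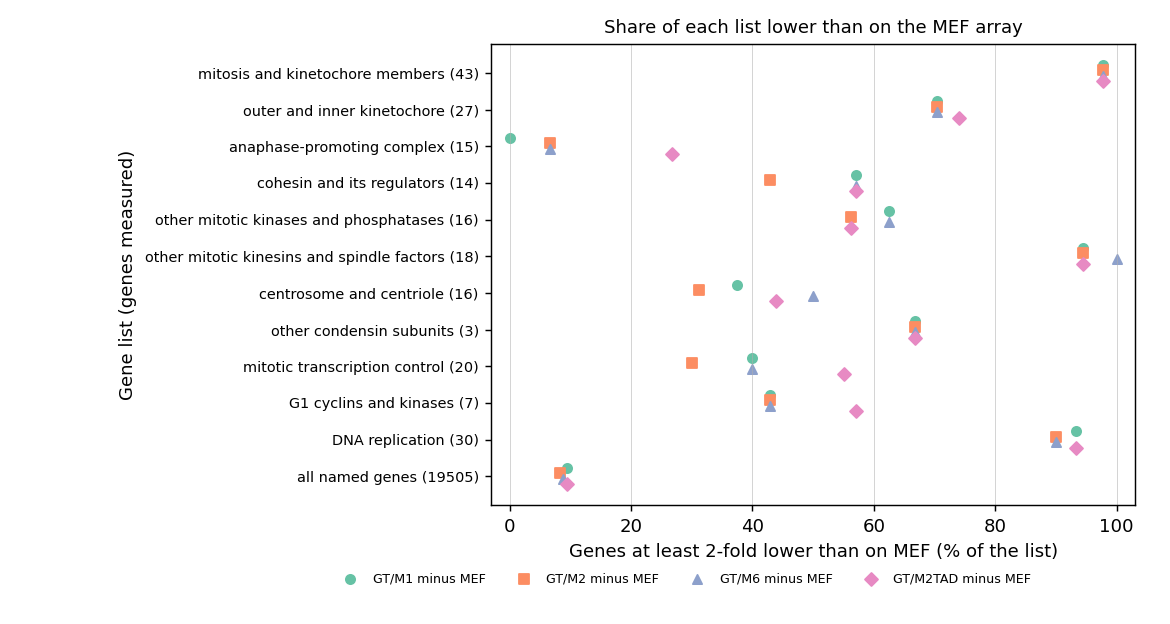
The share of each gene list that was at least 2-fold lower than on MEF (horizontal axis, percent of measured genes) is plotted for the 4 arrays without siRNA. The mitotic members, the other mitotic kinesins and the DNA replication genes lie at 90% or above, the anaphase-promoting complex lies between 0% and 26.7%, and all named genes lie between 8.34% and 9.52%.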

How the data were processed

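RNA from 7 samples, each with an integrity number above 7 and an input of 100 ng, was hybridised to Clariom S mouse arrays, per the labels' protocols. The deposited values are log2 signals that the authors made with the SST-RMA algorithm in Affymetrix Expression Console 1.4, per the series' design text and the submitters' processing notes. Settings are not given in the sources used here. Such normalization can mask a change common to most genes, and signals near background understate differences.

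Of 28846 probe sets, 19572 had 1 gene symbol in the platform annotation, 0 had several and 9274 had none. They gave 19505 genes. For 55 genes with several probe sets the one with the highest mean was used. All 43 measured members matched the RefSeq table of GRCm38.p6 by Entrez identifier, and 8 overlap another protein-coding gene. Differences were computed for 12 pairs of arrays in Python 3.11.15 with pandas 2.3.3. The counting rule was a log2 difference of at least 1, with the larger signal no lower than the median named gene on its array. The counting rule was tested on simulated data with changes only in genes well above the median, so changes at low signals were not covered. Precision is limited by 1 array per group: there are no replicates, no p-values and no errors.

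Values on all 7 arrays are given at least for the member of each role group with the highest mean signal, for members not lower in some comparison with MEF, and the 3 largest and 3 smallest differences per comparison guided the other names. The members, gene lists and motifs were chosen with earlier results of these data known. Motifs were searched on both strands in RefSeq promoter windows with 1 window per gene. Sequences were not at hand for 7 measured members. Alternatives were 3 other scalings, no floor, a floor at the 95th percentile of negative controls, means over probe sets, other comparator arrays and, chosen after seeing the data, signals raised to 9.33.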

Additional observations from a re-analysis of the deposited data

How the results depend on the processing

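No paired analysis was possible because each group held 1 array, and for the same reason no replicate could be left out. Against MEF, 37 to 38 members were lower on each transduced array with the floor at the 95th percentile of negative controls and 29 to 30 with signals raised to 9.33. Among all 19505 named genes, 1069 to 1381 were lower with that floor and 774 to 951 with raised signals. The alternatives that moved a count by more than 1.5 times were these, and the cause was not tested beyond what each alternative leaves out. The 1 member higher on GT/M2TAD than on MEF, Cenpa, became 0 under each of the 3 other scalings (quantile, median and level-dependent). For GT/M2 minus GT/M1 the 7 higher members became 3 with the negative-control floor and 0 with raised signals. The counts over all named genes were 192 and 96 under these settings. For GT/M6 minus GT/M2 the 14 lower members became 9 under quantile normalization, 9 under level-dependent centring, 4 with the negative-control floor and 1 with raised signals. Over all named genes the lower counts were 294, 282, 179 and 101 in that order. For GT/M2TAD minus GT/M2 the 32 lower members became 13 with the negative-control floor and 4 with raised signals, and 1 member was higher against the mean of the native isoforms. Over all named genes these counts were 362, 225 and 507. For siEp300 minus siCtrl the 4 higher members became 2 under quantile normalization, 2 under level-dependent centring, 7 with no floor, 0 with the negative-control floor and 0 with raised signals. Over all named genes the higher counts were 161, 164, 788, 117 and 37 in that order. With GT/M2TAD as comparator siEp300 had 7 lower and 0 higher and the median turned from 0.36 to -0.35, and with GT/M2 it had 35 lower and 0 higher and a median of -2.16. For siCtrl minus GT/M2TAD the 12 lower members became 8 under each of the 3 scalings, 2 with the negative-control floor and 1 with raised signals. Over all named genes 704 to 826 were lower under the scalings, 599 with that floor and 384 with raised signals. What background limits is the size of most differences, since 22 members exceeded it on MEF alone.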

Other observations

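The MEF and siCtrl arrays held exactly equal values for 23 probe sets, of which 10 were among the 23 background sets of the platform. No other pair of arrays had more than 9 equal probe sets. No member was read from a background set.

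E2f8, a repressor of the E2F family that was not among the 44 and was picked after its values were seen, had signals of 12.33 in MEF, 13.04 in GT/M1, 12.01 in GT/M2, 12.10 in GT/M6, 10.80 in GT/M2TAD, 8.54 in siCtrl and 8.99 in siEp300. The 3 native isoform arrays were thus within 2-fold of MEF for this gene, while the other 3 were lower. Rb1, which encodes the retinoblastoma protein, ran upwards, with 8.35 in MEF, 9.21 in GT/M1, 9.47 in GT/M2, 9.54 in GT/M6, 9.72 in GT/M2TAD, 10.77 in siCtrl and 10.77 in siEp300. Nek9, a mitotic kinase that acts above other Nek kinases, was likewise lowest on MEF at 7.96, with 9.56 to 10.49 on the 6 transduced arrays. The MEF signals of Rb1 and Nek9 are under the background level of that array.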
